A study of Homo sapiens with 8 samples.

Results

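The genes described are those of the keratin-associated proteins (KRTAP), taken as every gene in the promoter tables whose symbol is KRTAP followed by a digit. There were 68 such genes among 24256 genes with a promoter window, listed with 71 windows, and each gene was represented by its window with the most reads. They lay in 4 groups in hg19: 4 genes at 1629593 to 1718525 and 4 at 71247071 to 71316399 on chromosome 11, 29 at 39150285 to 39473947 on chromosome 17 and 31 at 31655176 to 32255874 on chromosome 21. Of the 68, 67 passed the filter on low reads. KRTAP9-7, in the chromosome 17 group, held 0 reads in all 8 libraries, inputs included, and was not tested.

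The cells were SiHa, an established line grown from a cervical squamous cell carcinoma, which were left to move through the membrane of a transwell insert for 10 h. Cells that had crossed (migrated) and cells that had not (non-migrated) were collected, and for each fraction an input library of sonicated chromatin and a library enriched with an antibody to H3K9me3 were sequenced, in replicate set 1 and again in replicate set 2. The 4 groups (non-migrated input, non-migrated H3K9me3, migrated input, migrated H3K9me3) therefore held 2 libraries each, all from the same line with no drug or genetic change given in the labels. The labels name no separate animals or donors, so the spread between sets is that between repeats of a cell line experiment.

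Keratin-associated proteins are small proteins made in the hair shaft, where they form the matrix between keratin filaments and are cross-linked to them. They are grouped by composition into high sulfur, ultrahigh sulfur (both rich in cysteine, which forms disulfide bonds) and high glycine-tyrosine families, and each family sits in tandem arrays of short genes without introns. H3K9me3 is a histone mark of silenced chromatin that is known for covering arrays of tissue-specific and repeated genes in cells that do not use them.

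Promoters of 4 members are shown because they carried the highest values on chromosomes 11, 17 and 21 and the lowest value of all members. Each run gives 250 bases before to 50 bases after the RefSeq start, on the gene's strand, in assembly GRCh38.p14, and capitals mark the letters TATAAA. The positions are chr11:71548170-71548469 (plus strand) for KRTAP5-9, chr17:41140495-41140794 (minus) for KRTAP4-6, chr21:30829710-30830009 (minus) for KRTAP7-1 and chr17:41060065-41060364 (minus) for KRTAP2-3. These coordinates are not those of the read windows, which are in hg19.
KRTAP5-9: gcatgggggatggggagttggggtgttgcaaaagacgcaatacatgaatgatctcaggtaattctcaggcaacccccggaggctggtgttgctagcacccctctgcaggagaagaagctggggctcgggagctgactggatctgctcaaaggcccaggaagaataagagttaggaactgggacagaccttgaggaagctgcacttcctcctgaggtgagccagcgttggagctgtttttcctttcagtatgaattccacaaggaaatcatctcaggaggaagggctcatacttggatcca
KRTAP4-6: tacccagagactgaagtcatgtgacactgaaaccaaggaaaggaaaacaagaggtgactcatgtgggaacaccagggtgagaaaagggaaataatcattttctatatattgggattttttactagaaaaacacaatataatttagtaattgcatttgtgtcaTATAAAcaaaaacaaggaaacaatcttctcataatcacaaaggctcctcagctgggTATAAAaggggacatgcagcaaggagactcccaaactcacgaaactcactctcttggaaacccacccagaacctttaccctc
KRTAP7-1: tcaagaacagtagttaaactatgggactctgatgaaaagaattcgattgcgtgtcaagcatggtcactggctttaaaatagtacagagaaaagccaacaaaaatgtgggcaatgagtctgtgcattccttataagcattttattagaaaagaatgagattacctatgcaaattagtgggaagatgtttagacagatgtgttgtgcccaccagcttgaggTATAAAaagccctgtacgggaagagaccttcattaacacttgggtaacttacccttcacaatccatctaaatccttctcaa
KRTAP2-3: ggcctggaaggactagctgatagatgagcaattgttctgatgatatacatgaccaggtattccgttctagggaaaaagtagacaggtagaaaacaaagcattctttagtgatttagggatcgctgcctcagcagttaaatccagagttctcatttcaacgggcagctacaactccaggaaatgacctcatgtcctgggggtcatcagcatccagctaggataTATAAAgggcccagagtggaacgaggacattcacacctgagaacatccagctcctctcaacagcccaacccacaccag
KRTAP4-6 held TATAAA at 2 places and KRTAP7-1 and KRTAP2-3 at 1, while KRTAP5-9 had none on either strand. The sequence had 4 CpG dinucleotides in KRTAP5-9, 1 in KRTAP4-6, 3 in KRTAP7-1 and 4 in KRTAP2-3.

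A RefSeq promoter was matched by symbol for 58 of the 68 members, and these were unlike most promoters in composition. TATAAA occurred on either strand in 46 of 58 (79.3%), against 11.5% of the 35116 RefSeq promoters of the same length. On the gene's own strand it occurred in 44 (75.9%), against 7.33%. The median member had 2 CpG dinucleotides and 41.2% G+C, where the median of all promoters had 14 and 58.7%. Of the members, 56 had at most 5 CpG (96.6%, against 33.7% of all promoters), and 10 had none. KRTAP17-1 had the most, 11. CpG number and H3K9me3 had a Spearman rho of -0.015 over 57 members, which is a description across genes of shared libraries.

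**Figure D1:**
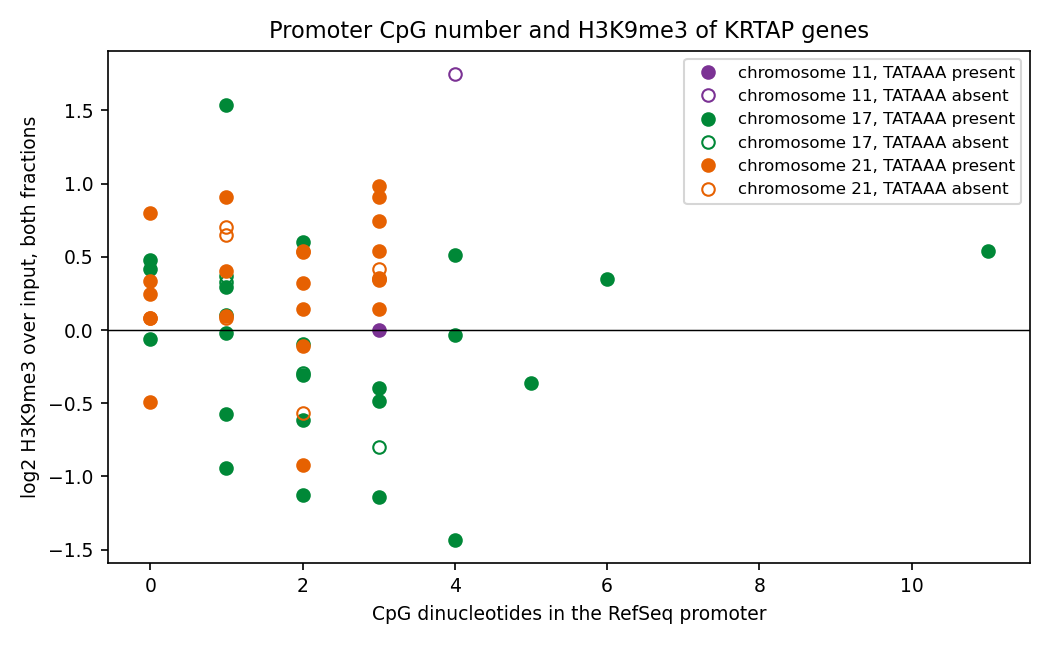
Number of CpG dinucleotides in the RefSeq promoter (x axis) against the mean log2 of H3K9me3 over input of the 2 fractions (y axis), 1 point per tested member, coloured by chromosome and open where TATAAA is absent. Nearly all members lie at 5 CpG or fewer, and high and low values of H3K9me3 occur at the same CpG numbers.

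Reads in promoter windows ranged from 88028 to 684949 in set 1 and from 984835 to 1729061 in set 2. The shallowest was the set 1 migrated H3K9me3 library, in which 13 of the 67 tested members (19.4%) and 25.1% of all tested genes had no read. Values below are log2 of H3K9me3 over input with the standard error (SE) of limma's model, over 2 sets, and 0 is the centre that the trimmed-mean scaling (TMM) puts at a typical promoter. The median of all 23165 tested genes lay at -0.21 on this scale. A call is a Benjamini-Hochberg adjusted p under 0.05 over all 36440 tested windows.

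Most KRTAP promoters lay close to the typical promoter. Averaged over both fractions, 6 of 67 members (8.96%) were called above it, where 18.3% of all tested genes were, and 4 (5.97%) below it, where 32.4% of all genes were. Both shares were under the background. The members ran from -1.43 to 1.75 with a median of 0.16, and 51 of 67 exceeded the median of all genes. Their SD was 0.60, against 1.3 for all genes, while the median SE was 0.36 for members and 0.39 for all genes. The count depended on the libraries used. With the 4 set 2 libraries alone, 34 members (50.7%) were called above, where 36.3% of all genes were, and 1 below, where 29.9% were. With set 1 alone, 25 members could be tested, and limma called 0 of them (1 above and 1 below at an unadjusted p under 0.05), where it called 3.18% of all genes above and 5.97% below. Calls among all genes moved as well when 1 library was left out. Without the set 1 migrated H3K9me3 library 18 members (26.9%) were above and 1 below, where 28.2% and 27.3% of all genes were. Without the set 2 migrated H3K9me3 library 10 (14.9%) and 9 (13.4%) were, against 16.9% and 31.5% of all genes. Without the set 1 non-migrated H3K9me3 library there were 12 and 6 (17.9% and 8.96%, against 20.6% and 26.8%), and without that of set 2 there were 8 and 1 (11.9% and 1.49%, against 21.1% and 32.3%). In each of these 4 cases both shares stayed under those of all genes. Leaving out an input gave 2 above and 1 below for the migrated input of set 1 (all genes 10.6% and 23.6%) and 11 and 1 for that of set 2 (21.9% and 23.3%). For the non-migrated input it gave 4 and 2 in set 1 (12.8% and 28%) and 7 and 1 in set 2 (17.7% and 19.5%). Without the replicate block limma called 7 above and 1 below (all genes 18.6% and 30.7%).

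**Figure D2:**
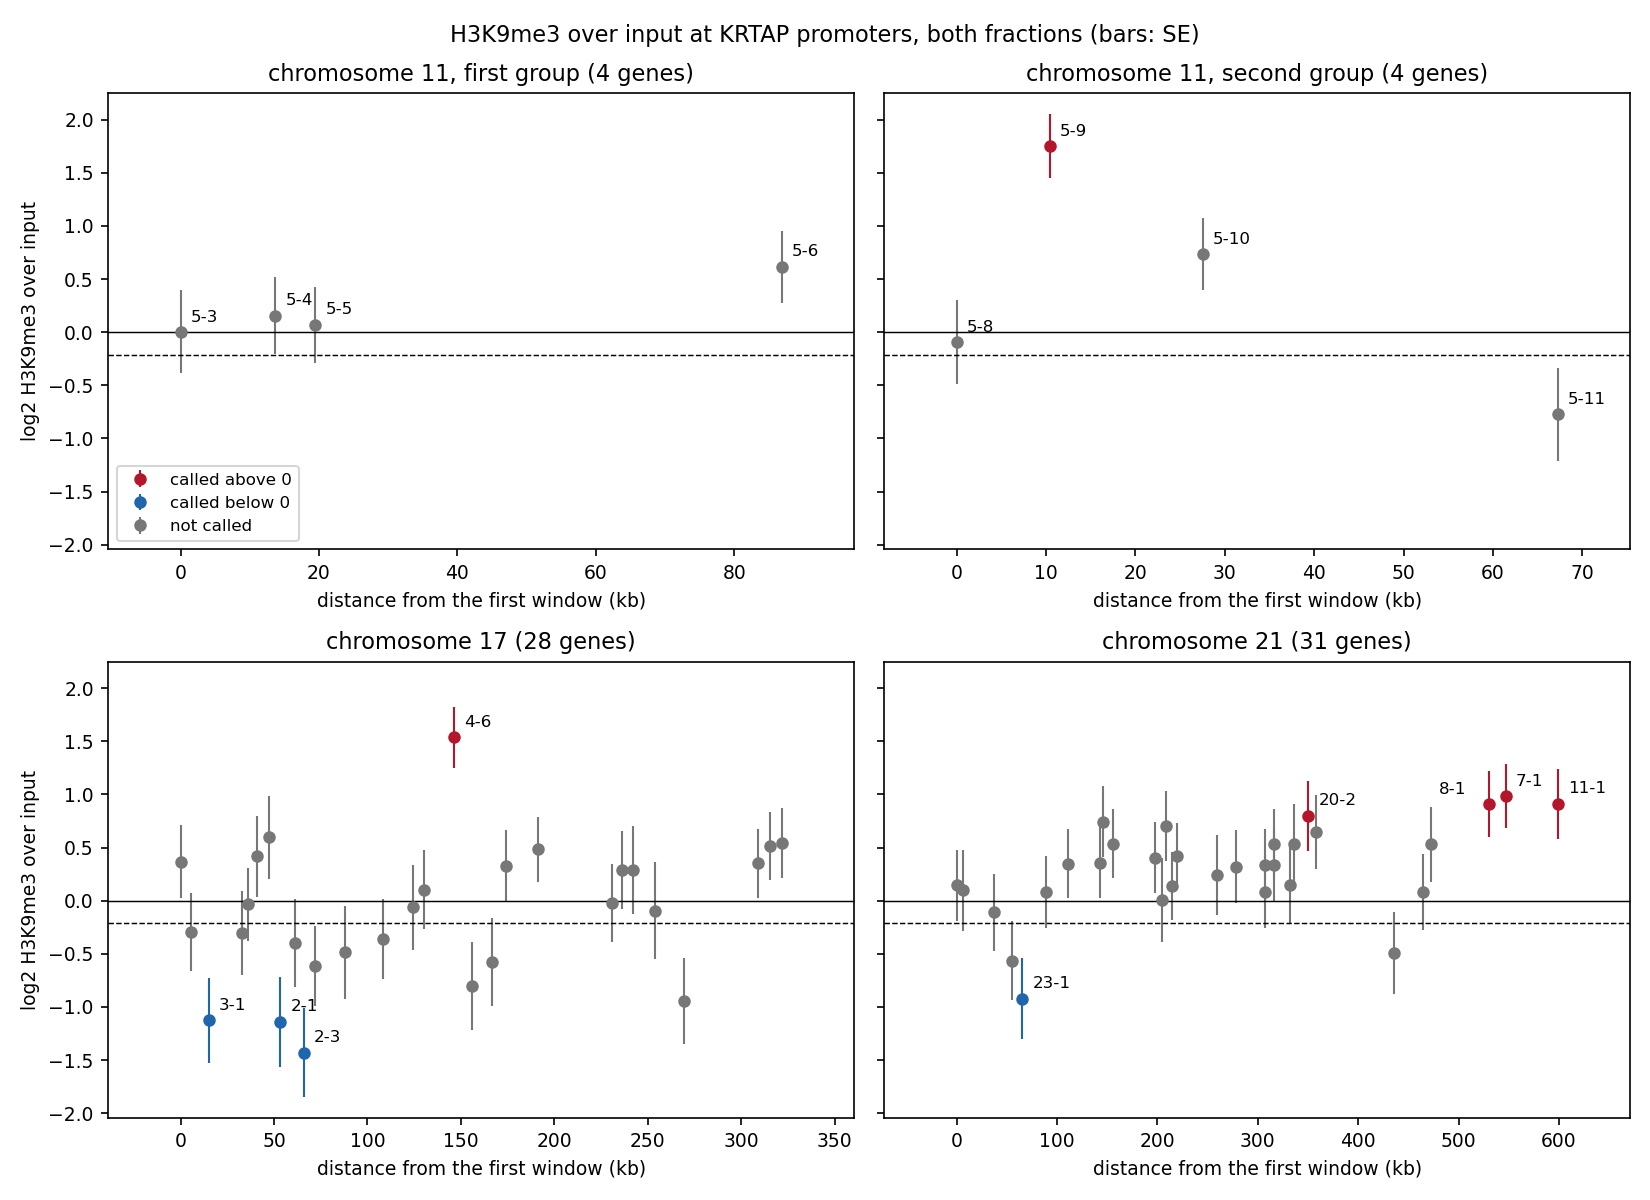
Mean log2 of H3K9me3 over input of the 2 fractions (y axis) for each tested member by its distance in kb from the first window of its group (x axis), with bars for the SE; red and blue mark members called above and below 0. The solid line is 0 and the dashed line the median of all genes, -0.21; the last 3 members of the chromosome 21 group are red, while KRTAP5-9 and KRTAP4-6 stand above uncalled neighbours.

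The chromosome 21 group had the highest median H3K9me3 of the 3 chromosomes. Of its 31 members, 28 lay above the median of all genes, 4 were called above the typical promoter and 1 below, and the median was 0.34. All 243 tested genes of chromosome 21 had a median of 0.24, with 57 called above and 59 below. The group's last 3 members in hg19 order were all called with the 8 libraries, and all 3 lost the call without the set 1 migrated input (0.83, 0.71 and 0.99 for KRTAP7-1, KRTAP8-1 and KRTAP11-1). KRTAP7-1, a high glycine-tyrosine protein gene (32201978 to 32204078, minus strand), had 14 input and 8 H3K9me3 reads in non-migrated cells of set 1 and 20 and 8 in migrated cells, then 36 and 59 in non-migrated and 43 and 46 in migrated cells of set 2. Relative to input its values were 0.36, 1.46, 1.18 and 0.86, all above 0. The average was 1.98-fold (log2 0.99 ± 0.31, limma adjusted p = 0.00738). With the constants of the deposited values in place of TMM it stood at 0.033 and was not called.

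KRTAP8-1, another high glycine-tyrosine gene (32185470 to 32187570, minus), had 17 input and 11 H3K9me3 reads, then 14 and 5, in the non-migrated and migrated pairs of set 1, and 39 and 57, then 32 and 31, in set 2. All 4 library pairs lay above 0, between 0.53 and 1.33. The average was log2 0.91 ± 0.31 (limma adjusted p = 0.015), and it turned to -0.039 with the deposited constants. KRTAP11-1, a high sulfur gene (32253774 to 32255874, minus), had 9 input and 13 H3K9me3 reads in non-migrated cells and 20 and 2 in migrated cells of set 1, against 45 and 68, then 47 and 57, in set 2. Its pairs gave 1.64, -0.31, 1.07 and 1.03, so the migrated pair of set 1, with 2 H3K9me3 reads, lay apart from the other 3. The average was log2 0.91 ± 0.33 (limma adjusted p = 0.0212), and -0.13 with the deposited constants. Its call was also lost without the set 2 migrated H3K9me3 library (0.43), the set 1 non-migrated one (0.60) or the set 1 non-migrated input (0.87), and its value was 1.54 without the set 1 migrated H3K9me3 library.

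Farther upstream, KRTAP20-2, a high glycine-tyrosine gene (32005555 to 32007655, plus strand), was also called. It had 13 input and 10 H3K9me3 reads, then 17 and 3, in the non-migrated and migrated pairs of set 1, and 48 and 43, then 26 and 48, in set 2. The migrated pair of set 2 was highest at 1.63, and the other 3 lay between 0.32 and 0.77. The average was log2 0.80 ± 0.33 (limma adjusted p = 0.0409), and -0.16 with the deposited constants. The call was lost with median-of-ratios factors (0.71) and without precision weights (0.78). It was also lost without the set 2 migrated H3K9me3 library (0.46), the set 1 non-migrated one (0.63), the set 1 migrated input (0.92) or the set 1 non-migrated input (0.71), and the value was 1.35 without the set 1 migrated H3K9me3 library. Its neighbour KRTAP20-3 stood at 0.65 ± 0.35 and was not called (limma adjusted p = 0.116).

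At the other end of the group, KRTAP23-1, a high sulfur gene (31720824 to 31722924, minus), was the only chromosome 21 member called below the typical promoter. It had 20 input and 5 H3K9me3 reads in non-migrated cells and 25 and 0 in migrated cells of set 1, against 44 and 29, then 42 and 24, in set 2. The pairs gave -0.76 and -2.95 in set 1 and -0.12 and -0.036 in set 2, so the low value came from set 1. The average was -0.92 ± 0.38 (limma adjusted p = 0.043), and it was -0.018 and not called without the set 1 migrated H3K9me3 library, and 0.16 in set 2 alone. It was also not called with total reads (-0.77), no filter (-0.69), 2 reads added (-0.40) or no precision weights (-0.97). The same held for the quasi-Poisson model (-0.69), no replicate block (-0.57) and ribosomal protein scaling (-0.21). With 1 library left out it stayed called only without the set 2 migrated H3K9me3 library (-1.63) or the set 1 non-migrated one (-1.46), and in the other 6 cases it ran from -1.04 to -0.018. The adjacent KRTAP27-1 (31709912 to 31712012, minus) stood at -0.56 ± 0.37, not called (limma adjusted p = 0.206). It changed sign to 0.19 in set 2 alone and to 0.17 when libraries were scaled to ribosomal protein promoters.

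Some windows of this group cannot be read apart. The windows of KRTAP22-2 and KRTAP6-3, listed on opposite strands, share 1957 bases, and those of KRTAP6-2 and KRTAP22-1 share 1805 bases. None of these 4 was called. For KRTAP6-1 the window with the most reads lay on the strand opposite to the RefSeq gene, and the window on the gene's strand stood at -0.25 ± 0.42, against 0.15 ± 0.36 for the one used.

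**Figure D3:**
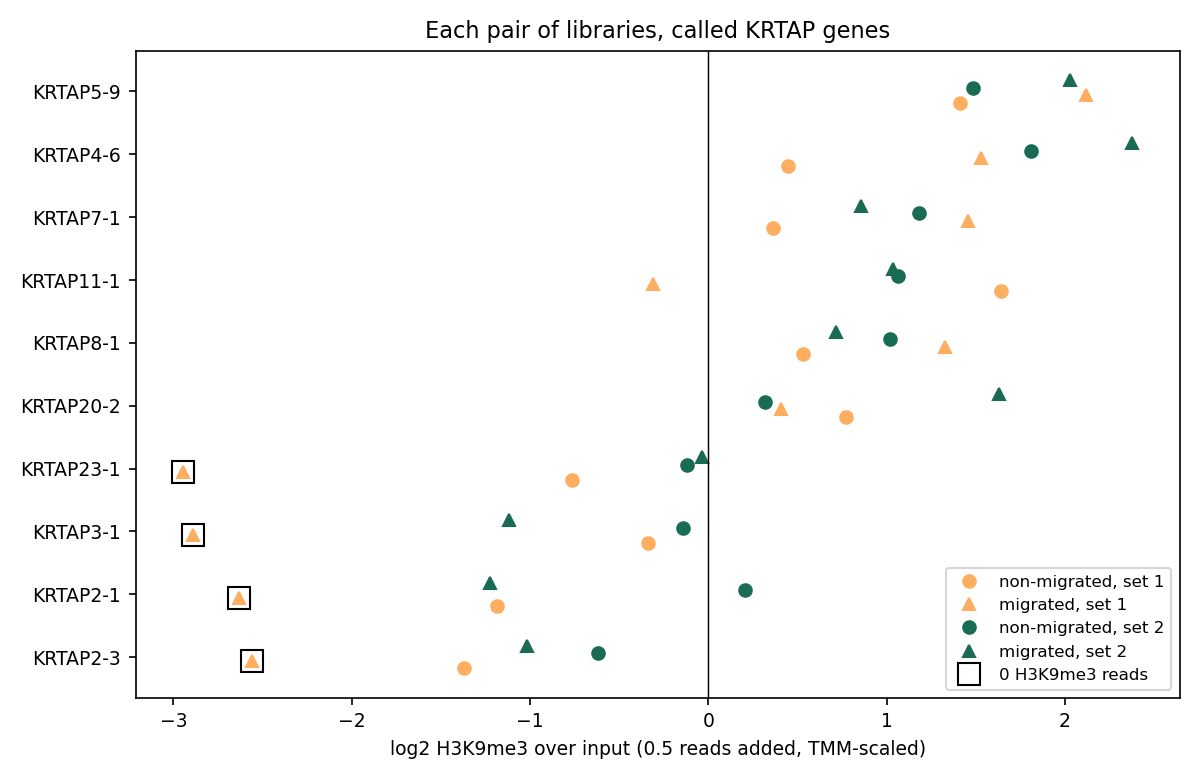
Log2 of H3K9me3 over input (x axis, 0.5 reads added, TMM-scaled) of the 10 called members (y axis) in each of the 4 library pairs; circles are non-migrated and triangles migrated cells, orange set 1 and green set 2. Squares mark pairs without an H3K9me3 read, which all 4 members called below 0 have in migrated cells of set 1.

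On chromosome 17 the members were centred near the typical promoter, with a median of -0.048, 16 of 28 above the median of all genes, 1 called above and 3 below. The 1094 tested genes of that chromosome had a median of -0.84, with 94 called above and 520 below. The called member above was KRTAP4-6, an ultrahigh sulfur gene (39296639 to 39298739, minus strand). It had 18 input and 11 H3K9me3 reads in non-migrated cells and 19 and 8 in migrated cells of set 1, and 41 and 104, then 28 and 87, in set 2. Its pairs gave 0.45, 1.53, 1.81 and 2.38, all above 0, with the non-migrated pair of set 1 lowest. The average was 2.90-fold (log2 1.54 ± 0.28, limma adjusted p = 3.8e-05), with 2.31 in set 2 alone and 0.25 in set 1 alone. With the deposited constants KRTAP4-6 stood at 0.61 and was not called. The windows on its sides were not called: KRTAP4-12 stood at 0.11 ± 0.38 and KRTAP4-5 at -0.80 ± 0.41. The RefSeq promoter of KRTAP4-6, of 300 bases, shared no run of 50 bases with another RefSeq promoter. The rest of its read window was not searched.

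The 3 members called below the typical promoter were high sulfur genes of the KRTAP2 and KRTAP3 families, near the start of the group. KRTAP2-3 (39216244 to 39218344, minus) had 8 input and 1 H3K9me3 read in non-migrated cells and 19 and 0 in migrated cells of set 1, and 39 and 18, then 32 and 9, in set 2. All 4 pairs lay below 0, at -1.37, -2.56, -0.62 and -1.02. The average was -1.43 ± 0.42 (limma adjusted p = 0.00468). It was not called with 2 reads added before the log (-0.68) or with libraries scaled to ribosomal protein promoters (-0.70). It remained called, at -1.11, without the set 1 migrated H3K9me3 library, and was not called without the set 1 migrated input (-1.21), without the set 2 non-migrated input (-0.95) or in set 2 alone (-0.51).

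KRTAP2-1 (39203468 to 39205568, minus) had 17 input and 3 H3K9me3 reads, then 20 and 0, in set 1, and 23 and 19, then 49 and 12, in the non-migrated and migrated pairs of set 2. Its non-migrated pair of set 2 lay above 0 at 0.21, and the other 3 between -2.63 and -1.19. The average was -1.14 ± 0.42 (limma adjusted p = 0.024). The call was lost with no filter (-0.88), 2 reads added (-0.55) or no precision weights (-1.21). It was also lost in the quasi-Poisson model (-1.16), with no replicate block (-0.87) and with ribosomal protein scaling (-0.41). KRTAP3-1 (39165266 to 39167366, minus) had 12 input and 4 H3K9me3 reads, then 24 and 0, in set 1, and 31 and 20, then 38 and 10, in set 2. All 4 pairs were below 0, with the non-migrated ones at -0.34 and -0.14 and the migrated ones at -2.89 and -1.12. The average was -1.13 ± 0.40 (limma adjusted p = 0.0176). The call was lost with no filter (-0.87), 2 reads added (-0.53), no replicate block (-0.94) or ribosomal protein scaling (-0.40). In set 2 alone KRTAP2-1 stood at -0.31 and KRTAP3-1 at -0.29. None of the 4 members called below with all libraries kept its call there. Without the set 1 migrated H3K9me3 library, KRTAP2-1 stood at -0.49 and KRTAP3-1 at -0.43, and neither was called. With other libraries left out, KRTAP2-1 lost its call without the set 2 migrated input (-0.55), the set 2 non-migrated H3K9me3 library (-0.75) or the set 1 non-migrated input (-0.84). KRTAP3-1 lost it without either migrated input (-1.18 for set 1, -0.84 for set 2), the set 2 non-migrated H3K9me3 library (-0.69) or the set 2 non-migrated input (-0.91).

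Over all 4 tested KRTAP2 genes the median was -0.88, the lowest of the families with at least 3 tested genes, and over the 3 KRTAP3 genes it was -0.29. In the set 1 migrated H3K9me3 library 3 of the 4 KRTAP2 genes had no reads, and the family's median in non-migrated and migrated pairs was -0.87 and -2.59 in set 1 and -0.21 and -0.66 in set 2. The KRTAP1 genes between them had a median of 0.19, the 9 KRTAP4 genes -0.061 and the 5 tested KRTAP9 genes -0.022. KRTAP1-1, a high sulfur gene (39197613 to 39199713, minus), was the highest chromosome 17 member after KRTAP4-6 at 0.60 ± 0.39 and was not called (limma adjusted p = 0.202); it was called at 1.17 in set 2 alone and stood at -0.43 with the deposited constants. Near-identical copies limit the reading of this array, since 9 of its members shared runs of 50 promoter bases with another RefSeq promoter. They were KRTAP2-1, KRTAP2-2, KRTAP2-4, KRTAP4-7, KRTAP4-9 and the KRTAP9 genes 9-2, 9-3, 9-4 and 9-7. Shared runs could be looked for in the 58 members with a RefSeq promoter, 28 each on chromosomes 17 and 21 and 2 of 8 on chromosome 11, so copies among the KRTAP5 genes were largely not examined. The sources used here do not give how the authors treated reads that match several copies. The lowest member, KRTAP2-3, shared no such run in its promoter. Only RefSeq promoters of 300 bases were compared, so copies elsewhere in the wider read windows were not examined. The share of such runs and H3K9me3 had a Spearman rho of -0.37 over 57 members, a description across genes of which most share none.

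KRTAP4-2 and KRTAP4-9 had more than 1 window, and the choice mattered for both. KRTAP4-2 stood at 0.48 ± 0.30 in the wider window used here and was called at 0.86 ± 0.34 (limma adjusted p = 0.0322) in a window on the other strand within it. KRTAP4-9 stood at -0.36 ± 0.38 in the window used and was called at -1.11 ± 0.42 (limma adjusted p = 0.0271) in its other window, which had 0 reads in the set 1 migrated H3K9me3 library. Both KRTAP4-9 windows were listed on the strand opposite to the RefSeq gene. Counting a gene as called when any of its windows was called gave 7 members above and 5 below. The share of all genes under this rule was not worked out, so these counts have no background here.

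All 8 members on chromosome 11 are ultrahigh sulfur genes of the KRTAP5 family, and 7 of them lay above the median of all genes. Their median was 0.11, against -0.31 for the 1403 tested genes of the chromosome, of which 209 were called above and 499 below. KRTAP5-9 (71257466 to 71259566, plus strand) was the highest of all members. It had 9 input and 11 H3K9me3 reads in non-migrated cells and 14 and 9 in migrated cells of set 1, and 52 and 105, then 42 and 102, in set 2. Its pairs gave 1.41, 2.12, 1.48 and 2.03, all above 0. The average was 3.36-fold (log2 1.75 ± 0.30, limma adjusted p = 1.59e-05), and 97.2% of all genes had a lower value. With the deposited constants it stood at 0.82 and was not called.

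The windows beside KRTAP5-9 had lower values. KRTAP5-8 (71247071 to 71249171, plus) stood at -0.094 ± 0.40, with pairs at 0.35, -2.03, 0.81 and 0.31, and its sign depended on the set 1 migrated H3K9me3 library, which had 0 reads there and without which it was 0.66. KRTAP5-10 (71274609 to 71276709, plus) stood at 0.73 ± 0.34, not called (limma adjusted p = 0.07), with all 4 pairs between 0.61 and 0.92, and it was called at 1.12 in set 2 alone. KRTAP5-11 (71314299 to 71316399, minus) was the lowest on this chromosome at -0.77 ± 0.44, not called (limma adjusted p = 0.143), although set 2 alone called it at -0.90. The first group, at KRTAP5-3 to KRTAP5-6, had a median of 0.11 and values from 0.0026 to 0.62. Averaged over both fractions, none was called by limma or the quasi-Poisson model or had an unadjusted p under 0.05. In migrated cells KRTAP5-6 stood at 0.87 ± 0.41, with a limma unadjusted p of 0.0386 and an adjusted p of 0.082.

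Reads pooled over the members of a chromosome put chromosome 17 lowest in each of the 4 library pairs. The non-migrated and migrated pairs of set 2 gave 0.62 ± 0.060 and 0.56 ± 0.063 on chromosome 21, 0.52 ± 0.10 and 0.60 ± 0.11 on chromosome 11 and 0.30 ± 0.067 and 0.29 ± 0.074 on chromosome 17 (errors from read counts only). In set 1 they gave 0.11 ± 0.12 and -0.038 ± 0.16 on chromosome 21, 0.61 ± 0.29 and 0.45 ± 0.34 on chromosome 11, and 0.043 ± 0.15 and -0.67 ± 0.22 on chromosome 17. All genes pooled lay between -0.13 and 0.093. In set 2 chromosomes 11 and 21 differed by less than their counting errors. The second chromosome 11 group, which holds KRTAP5-9, gave 0.81 and 1.03 in set 2, and the first gave 0.18 and 0.13. The medians fitted by set showed the difference between sets too. In set 2 alone they were 0.82, 0.69 and 0.31 for chromosomes 21, 11 and 17, with all genes at 0.12. In set 1 alone only 18 members of chromosome 21 and 6 of chromosome 17 passed the read filter. Their medians were -0.36 and 0.083, with all genes at 0.037. Over all 31 tested members of chromosome 21 the non-migrated and migrated pairs of set 1 had medians of 0.25 and 0.043. The 28 of chromosome 17 had 0.056 and -0.59, so the order in set 1 depended on which members were counted. On chromosome 11 only 1 member could be tested in set 1 alone. The kit and the purification differed between the sets, and their part in this was not tested.

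**Figure D4:**
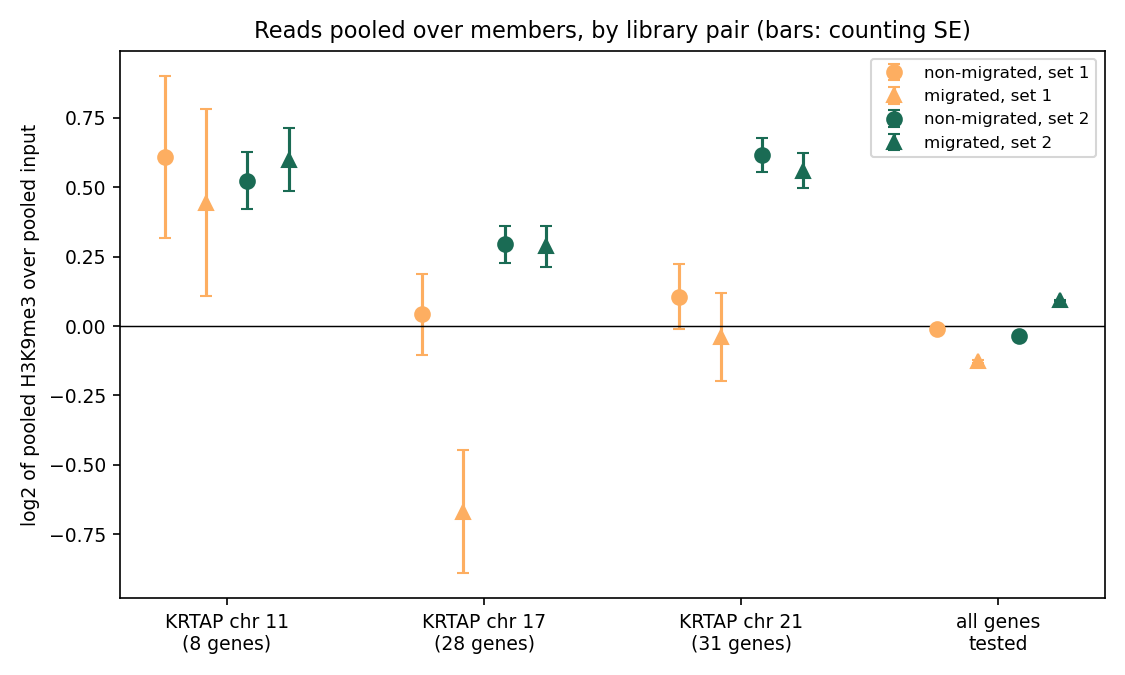
Log2 of pooled H3K9me3 over pooled input reads (y axis) for the tested members of each chromosome and for all tested genes (x axis), in the 4 library pairs, with bars for the SE from read counts. Set 2 (green) lies above 0 for all 3 chromosomes, and the migrated pair of set 1 lies at -0.67 on chromosome 17.

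The order of the chromosomes did not depend on the scaling of the 8 libraries, but the distance from all genes depended on single libraries. Relative to the median of all genes, the median of chromosome 21 was 0.54 to 0.55 higher under all 5 scalings tried, that of chromosome 11 was 0.32 to 0.34 higher and that of chromosome 17 was 0.16 to 0.17 higher. With 1 library left out at a time, the difference ran from 0.39 to 0.61 on chromosome 21, from 0.27 to 0.49 on chromosome 11 and from -0.036 to 0.45 on chromosome 17. The chromosome 17 median was not above that of all genes without the set 2 migrated H3K9me3 library (-0.036) or the set 1 non-migrated one (-0.032), and was 0.45 above it without either of the other H3K9me3 libraries. The position of 0 did depend on the scaling. The median of all genes moved from -0.21 with TMM to -0.31 with median-of-ratios factors, -0.094 with total reads, -1.17 with the deposited constants and 0.52 when ribosomal protein promoters were set to 0. With ribosomal protein promoters as the reference, 38 of 67 members (56.7%) were called above, where 39.7% of all genes were, and with the deposited constants 16 (23.9%) were called below, where 50.5% of all genes were.

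**Figure D5:**
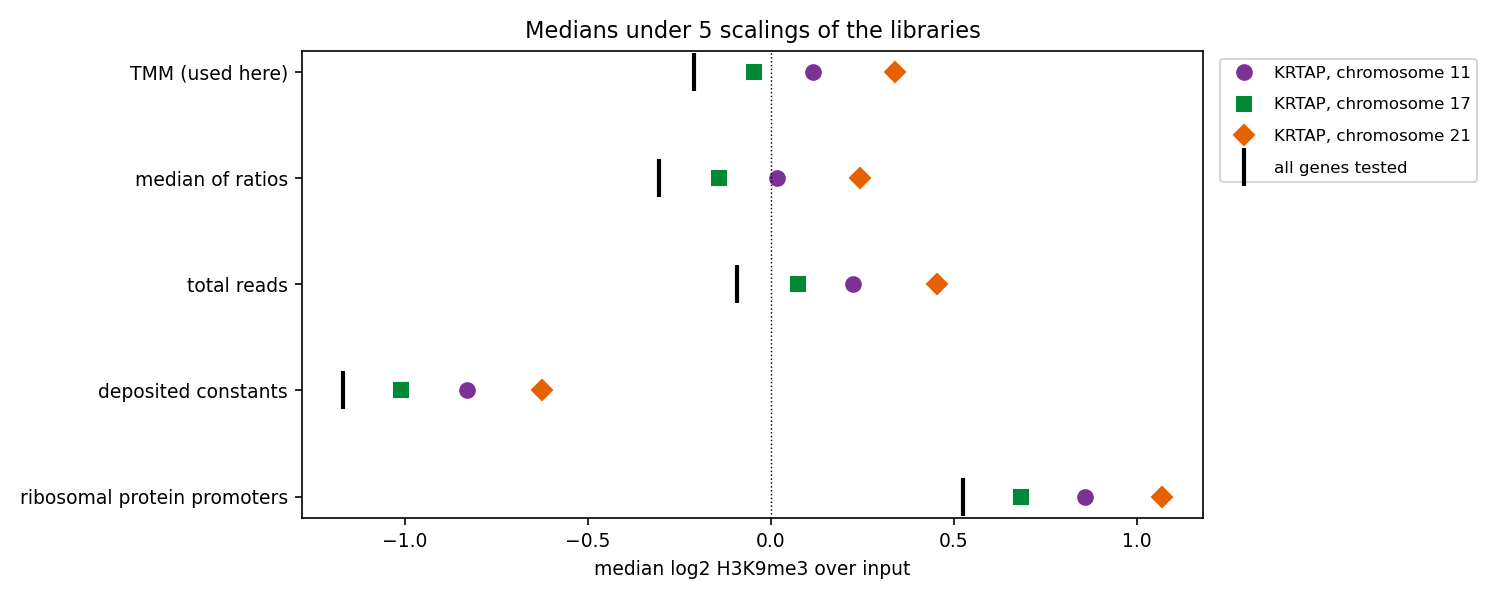
Median log2 of H3K9me3 over input (x axis) of the members on each chromosome and of all tested genes (black bars) under 5 ways of scaling the libraries (y axis). All medians shift together, and chromosome 21 stays above chromosome 11, chromosome 17 and all genes in each row.

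Within each fraction fewer members were called. In non-migrated cells 3 of 67 members (4.48%) lay above the typical promoter, where 10.2% of all genes did, and 0 below, where 21.4% of all genes did. The quasi-Poisson model called 5 above (7.46%, against 10.4% of all genes) and 0 below. At an unadjusted p under 0.05 limma had 7 above and 1 below. The share of all genes at this unadjusted p was not worked out, nor for set 1 alone, the composition classes or the hair lists. The 3 called by limma at the adjusted p were KRTAP5-9 (log2 1.47 ± 0.38, limma adjusted p = 0.00316), KRTAP4-6 (1.20 ± 0.35, adjusted p = 0.00922) and KRTAP11-1 (1.06 ± 0.41, adjusted p = 0.0462). In migrated cells 4 (5.97%) lay above, where 15.1% of all genes did, and 3 (4.48%) below, where 25.9% did. Those above were KRTAP5-9 (2.03 ± 0.37, limma adjusted p = 0.000121), KRTAP4-6 (1.88 ± 0.37, adjusted p = 0.000256), KRTAP20-2 (1.29 ± 0.44, adjusted p = 0.0182) and KRTAP7-1 (0.97 ± 0.38, adjusted p = 0.0398). Those below were KRTAP3-1, KRTAP2-1 and KRTAP2-3, at -1.83, -1.79 and -1.73, each with 0 H3K9me3 reads in set 1. The number above in non-migrated cells went up to 17 (25.4%, against 22.4% of all genes) without the set 1 migrated H3K9me3 library and down to 0 (all genes 1.93%) without the set 2 non-migrated input. In migrated cells it went from 2 (2.99%, all genes 7.29%), without the set 1 migrated input, to 11 (16.4%, all genes 20.8%), without the set 1 non-migrated H3K9me3 library.

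No member was called as changed between the fractions. The input-corrected difference, migrated minus non-migrated, was called for 0 of 67 members in either direction and for 0 of all genes (0%), and the smallest adjusted p of a member in limma was 0.999. At an unadjusted p under 0.05 there was 1 member, against 3.52% of all windows, and the quasi-Poisson model called 0. That member was KRTAP3-2, a high sulfur gene (39156038 to 39158138, minus strand of chromosome 17). It had 10 input and 4 H3K9me3 reads, then 28 and 1, in the non-migrated and migrated pairs of set 1, and 26 and 35, then 37 and 16, in set 2. Both sets had the lower value in migrated cells, by -1.43 and -1.32, and the fitted difference was -1.36 ± 0.62. Its neighbour KRTAP3-1 had -2.55 and -0.97, and a fitted difference of -1.40 ± 0.72.

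Other members with large differences of one sign in both sets did not pass either. KRTAP9-8 (39392297 to 39394397) stood at -1.08 ± 0.65 and KRTAP19-6 (31914083 to 31916183) at -0.99 ± 0.65, lower in migrated cells. Higher in migrated cells were KRTAP1-4 (39186277 to 39188377) at 0.69 ± 0.61, KRTAP4-6 at 0.68 ± 0.45, KRTAP1-1 at 0.66 ± 0.61 and KRTAP19-4 (31869351 to 31871451) at 0.64 ± 0.56. These 4 changed sign under the deposited constants, and KRTAP1-1 also without either H3K9me3 library of set 2. Over all members, 9 were higher and 25 lower in migrated cells in both sets, against 24.2% and 26.3% of all genes (13.4% and 37.3% of members). The median difference was -0.080, and that of all genes -0.0058. Pooled over members, the difference was -0.32 ± 0.15 in set 1 and -0.013 ± 0.060 in set 2 (counting error). Pooled over all genes it was -0.12 ± 0.0081 in set 1 and 0.13 ± 0.0030 in set 2, so members lay below all genes in both sets. For members on chromosome 17 the difference was -0.71 ± 0.27 in set 1 and -0.0070 ± 0.10 in set 2. That set 1 value coincided with the shallowest library, in which 9 of the 28 chromosome 17 members had no read, and the part of depth in it was not tested. With either set 2 H3K9me3 library left out, which left 1 library in its group, limma called KRTAP19-2 and KRTAP20-3 as changed. KRTAP4-4 was called only without the migrated one. The share of all genes called in these fits was not worked out. In set 1 KRTAP19-2, KRTAP20-3 and KRTAP4-4 had 6, 17 and 6 H3K9me3 reads in non-migrated and 0, 1 and 0 in migrated cells.

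The order of members was only partly shared between libraries. Across the 67 members, log2 values of non-migrated and migrated cells had a Pearson r of 0.63 in set 2 and 0.29 in set 1, where all genes gave 0.88 and 0.48. Between the sets, non-migrated values had r = 0.27 and migrated values 0.45, where all genes gave 0.66 and 0.62. These are descriptions across genes, and the range of the members was narrower than that of all genes.

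By composition, the high glycine-tyrosine genes, all on chromosome 21, had the highest median, 0.37 over 20 tested genes, with 3 called above (15%, against 18.3% of all genes) and 0 below (0 below at an unadjusted p under 0.05 and 0 by the quasi-Poisson model). The 23 high sulfur genes had a median of 0.083, with 1 called above (4.35%) and all 4 of the members called below (17.4%, against 32.4% of all genes). The 23 tested ultrahigh sulfur genes, which lie on chromosomes 11 and 17, had a median of 0.071, with 2 above (8.70%) and 0 below (1 below at an unadjusted p under 0.05, 0 by the quasi-Poisson model). The high glycine-tyrosine genes lie on chromosome 21 alone, but the high sulfur genes lie on 2 chromosomes. The 12 high sulfur genes of chromosome 17 had a median of -0.30, with 3 called below, and the 11 of chromosome 21 had 0.15, with 1 called above and 1 below. The ultrahigh sulfur genes had 0.11 over the 8 of chromosome 11 and -0.022 over the 15 of chromosome 17. On chromosome 17 the set 1 migrated H3K9me3 library had no reads at 4 of the high sulfur and 5 of the ultrahigh sulfur genes. Among families of chromosome 21, the 7 KRTAP19 genes had a median of 0.32, the 4 KRTAP13 genes 0.35, the 3 KRTAP6 genes 0.34, the 3 KRTAP20 genes 0.65 and the 3 KRTAP21 genes 0.083.

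Genes within 500 kb of the groups differed from group to group. The 32 flanking genes of chromosome 17 had a median of -0.35, with 4 called above (12.5%) and 7 below (21.9%), next to -0.048 for the members. All genes had 18.3% and 32.4%. These flanking genes include the chromosome 17 keratins of the hair lists described next, so the sets overlap. KRT33A, KRT38 and KRT32 are among those called above, and KRT27 is among those called below. Around the first chromosome 11 group, 21 genes had a median of -0.86 with 4 above (19.0%) and 10 below (47.6%), and around the second, 12 genes had -0.14 with 4 above (33.3%) and 3 below (25.0%). The chromosome 21 group had only 3 tested neighbours, all before it, with a median of 0.14.

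Other genes of the hair follicle, taken from hand-written lists, were read in the same way. Of 17 hair shaft keratins, the filament proteins that KRTAP proteins bind, 13 were tested, and 3 were called above the typical promoter (23.1%, against 18.3% of all genes) and 0 below, where 32.4% of all genes were (1 below at an unadjusted p under 0.05, 0 by the quasi-Poisson model), with a median of 0.10. These were KRT33A at 1.17 ± 0.32 (limma adjusted p = 0.00255), KRT38 at 0.95 ± 0.31 and KRT32 at 0.77 ± 0.30, all on chromosome 17 after the KRTAP group. KRT32 changed sign with the deposited constants (-0.21) and in set 1 alone (-0.11). Of 9 keratins of the inner root sheath and companion layer, the sleeves around the growing shaft, KRT72 was called above (1.18 ± 0.30) and KRT27 below (-1.34 ± 0.39, with 0 reads in the set 1 migrated H3K9me3 library), and the median was -0.34. Of 29 follicle regulators and structural genes, 22 were tested, with 5 above (22.7%), 6 below (27.3%) and a median of -0.25, so that both shares were near those of all genes. TSPEAR, described below with the KRTAP genes inside it, was among the 5 called above. EDA, which encodes the ligand ectodysplasin, stood at 2.07 ± 0.25 and its receptor gene EDAR at -2.63 ± 0.47, while DLX3, a homeobox gene of the hair follicle, stood at -2.52 ± 0.43. These values lie outside the range of the KRTAP members.

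RefSeq lists 94 protein-coding KRTAP genes, of which 68 had a window under their own name. The 16 genes of the KRTAP10 and KRTAP12 families lie inside TSPEAR on chromosome 21, whose window with the most reads (46064331 to 46067157, plus strand) stood at 1.73 ± 0.23 (limma adjusted p = 4.26e-07). It had 23 input and 18 H3K9me3 reads, then 23 and 17, in the non-migrated and migrated pairs of set 1, and 90 and 240, then 102 and 219, in set 2. Of the 18 tested windows listed under TSPEAR, 7 were called above and 0 below, with a median of 0.64. All tested windows had a median of -0.345. The share of all windows called was not worked out, so the count of 7 has no background here. Which of the 18 belong to KRTAP starts was not worked out either.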

How the data were processed

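SiHa promoters were read from 2 tables, 1 per replicate set, that the authors deposited as log2 values per the file headers, for 38157 windows in hg19, mostly of 2100 bases. Tools named in the submitters' processing notes are Bowtie2 2.2.9, SAMtools 1.3 and FastQC 0.11.5. The sources used here do not name the counting program. Set 1 came from gel extraction with an Illumina kit and was deduplicated, and set 2 from beads with an NEB kit, per the labels' protocols. For the set 1 migrated H3K9me3 library the replicate number in the title, used here, differs from that in the description.

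The deposited log2 values are whole read counts times 1 constant per library (100% whole within 0.01), with 0 reads entered as 0.9. From these reads, limma 3.58.1 (voom) in R 4.3.3 was fitted to log2 reads plus 0.5, scaled by TMM trimming 30% of ratios and 5% of levels at either end. Windows needed the equivalent of 10 reads at the median library size in at least 2 libraries and 15 reads in all, which left 36440 windows and 23165 genes. The model held set, H3K9me3 against input, their product, fraction, and fraction by H3K9me3, with 2 residual and 33.1 prior degrees of freedom, and each contrast was fitted as its own coefficient. Same-numbered libraries deviated together from their group means (r = 0.147 for H3K9me3 and 0.469 for input over 36440 windows), and the series describes paired sets, so the set was kept as a block. The script was tested on simulated data. Precision is limited by read counts, and intervals from reads cover counting error only.

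Named members were those called in a comparison, the 2 highest and 2 lowest per chromosome with at least 10 reads in each set 2 input, and up to 4 per direction of change whose sign was shared by both sets, with at least 20 set 2 H3K9me3 reads; hair list genes were up to 3 per list by smallest p. EDAR, and members named as neighbours, by library left out or for several windows, were named after their values were seen. The members and lists were chosen with earlier results of these data known. Alternatives covered scaling, filter, reads added, weights, a quasi-Poisson model, the block, each library and each set.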

Additional observations from a re-analysis of the deposited data

How the results depend on the processing

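The counts of called members depended on the processing, and the order of the chromosome medians did not depend on the scaling. The share of all genes called moved too. Called above in both fractions were 14.9% of members and 21.8% of all genes with total reads. These shares were 23.9% and 25.3% with no filter, and 23.9% and 27.5% with 2 reads added. With the deposited constants they were 0% and 1.16%. Those below were 1.49% and 26% with no filter, 0% and 27% with 2 reads added, and 0% and 17.4% with ribosomal protein promoters. They were 2.99% and 28.6% without weights, and 2.99% and 31.4% in the quasi-Poisson model. Members called above the typical promoter in both fractions (6) were 10 with total reads, 0 with the deposited constants, 38 with ribosomal protein promoters, 16 with no filter, 16 with 2 reads added, 34 in set 2 alone, 0 in set 1 alone and 2 to 18 without 1 library. Those below (4) were 16 with the constants, 0 with ribosomal protein promoters, 1 with no filter, 0 with 2 reads added, 2 without weights, 2 in the quasi-Poisson model, 1 in set 2 alone, 0 in set 1 alone and 1 to 9 without 1 library. Those above in non-migrated cells (3) were 7 with total reads, 0 with the constants, 22 with ribosomal protein promoters, 7 with no filter, 9 with 2 reads added, 5 in the quasi-Poisson model and 0 to 17 without 1 library. Those above in migrated cells (4) were 0 with the constants, 24 with ribosomal protein promoters, 9 with 2 reads added and 2 to 11 without 1 library. With ribosomal protein promoters, members and all genes above were 32.8% and 28.9% in non-migrated cells and 35.8% and 31% in migrated cells. With 2 reads added they were 13.4% and 15.8%, then 13.4% and 22%. With the constants they were 0% and 0.479%, then 0% and 0.108%. In non-migrated cells they were 10.4% and 14% with total reads and 10.4% and 14.8% with no filter. The quasi-Poisson model gave 7.46% and 10.4% there. Members changed between the fractions stayed at 0 except without either set 2 H3K9me3 library, where the share of all genes was not worked out. The median of chromosome 11 (0.11) was 0.016 with median-of-ratios factors, 0.22 with total reads, -0.83 with the constants, 0.86 with ribosomal protein promoters, 0.40 with no filter, 0.36 with 2 reads added, 0.068 in the quasi-Poisson model, 0.69 in set 2 alone, 1.24 in set 1 alone (1 gene) and 0.075 to 0.57 without 1 library. That of chromosome 17 (-0.048) was -1.01 with the constants, 0.68 with ribosomal protein promoters, 0.23 with no filter, 0.19 with 2 reads added, 0.31 in set 2 alone and -0.27 to 0.53 without 1 library. That of chromosome 21 (0.34) was -0.63 with the constants, 1.07 with ribosomal protein promoters, 0.82 in set 2 alone, -0.36 in set 1 alone (18 genes) and 0.16 to 0.67 without 1 library.

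Without the replicate block that pairs the sets, 7 members were above and 1 below in both fractions, and 0 changed. Above in non-migrated cells were 3 (4.48%, against 6.81% of all genes), and in migrated cells 3 (4.48%, against 12%). The medians without the block were 0.20, -0.011 and 0.39 for chromosomes 11, 17 and 21, and KRTAP5-8 stood at 0.26. KRTAP5-8 (-0.094) also turned positive with total reads (0.047), ribosomal protein promoters (0.62), no filter (0.15), 2 reads added (0.37), the quasi-Poisson model (0.098) and set 2 alone (0.84), and ran from -0.67 to 0.66 without 1 library. With the constants, the sign turned for KRTAP11-1 (-0.13), KRTAP20-2 (-0.16), KRTAP8-1 (-0.039), KRTAP1-1 (-0.43), KRTAP5-10 (-0.14) and KRT32 (-0.21), and for the change of KRTAP1-1 (-0.41), KRTAP1-4 (-0.32), KRTAP19-4 (-0.37) and KRTAP4-6 (-0.097). Set 2 alone turned KRTAP23-1 (0.16) and KRTAP27-1 (0.19), ribosomal protein promoters turned KRTAP27-1 (0.17), set 1 alone turned KRT32 (-0.11), and the change of KRTAP1-1 ran from -0.60 to 1.65 without 1 library. The constants and ribosomal protein promoters move all genes by construction; other causes were not tested. Using only windows on the RefSeq strand was chosen after seeing the data, as were the alternatives for hair list genes. One set alone left no residual degrees of freedom within a fraction or for the change, so no such value is given. Few reads per window limit set 1, where the median member held 2 reads in the migrated H3K9me3 library.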
